A study of Saccharomyces cerevisiae with 68 samples.

Results

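Loss of both enzymes of the SAGA coactivator was followed in total RNA of budding yeast, by setting a strain without the Ubp8 deubiquitinase and the Gcn5 acetyltransferase (ubp8_gcn5) against the wild type (WT). The sample titles chose the members, 4 ubp8_gcn5 arrays and WT replicates 3 to 6, which are 8 of the 68 arrays of the series and 8 of its 34 total RNA arrays. The strains derive from FY406. WT is the strain without a SAGA deletion, and ubp8 and gcn5, the single deletions set beside the double one, gave 4 arrays each. Whether each deletion strain was 1 clone was not given in the sources used here. All cultures, WT included, grew at 30 °C in YPD, a rich medium, until the OD600 was 0.8, then received 5 mM 4-thiouracil for 6 min, and labelled S. pombe cells were added at a ratio of 3 S. cerevisiae cells to 1. Signals are array intensities of 1 probe set per gene, given below as log2 values relative to the array's median over S. cerevisiae probe sets. A change is a difference of such values, so it is relative to the median gene. The labels state 2 independent biological replicates per deletion strain where 4 arrays are present. Which arrays share a culture was not given in the sources used here, so the p-values measure a spread that may be partly technical.

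SAGA is brought to promoters by DNA-bound activators, where Gcn5, working with Ada2 and Ada3, acetylates histone H3. Ubp8 sits in a module with Sgf11, Sus1 and Sgf73 and takes ubiquitin off histone H2B, the mark that Rad6 and Bre1 place. In yeast, ARG1, which the activator Gcn4 turns on, the phosphate genes under Pho4, and HO are among the genes on which the complex has been studied most.

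Both deleted genes were far below WT in every ubp8_gcn5 array. GCN5 stood at -0.22, -0.86, -0.40 and -0.60 in the WT arrays and at -5.24, -5.85, -4.90 and -5.95 in the double mutant. UBP8 stood at -0.93, -1.22, -0.94 and -1.13 in WT and at -5.25, -5.21, -5.38 and -5.67 in the double mutant. The groups were wide apart for both genes, with changes of -4.96 ± 0.23 (SE, n = 4 and 4 arrays, limma adjusted p = 1.15e-10) for GCN5 and -4.32 ± 0.56 (adjusted p = 8.76e-06) for UBP8, both from the fit without a filter on dim genes. Of the 8 annotated genes nearest to the deletions, 6 are on the table under their names. FSH2, a putative serine hydrolase gene next to UBP8 that is transcribed away from it, fell by 1.33 ± 0.10 in the double mutant, by 1.09 in ubp8 and by 0.53 in gcn5. ENO1, an enolase gene near GCN5, rose by 1.08 ± 0.15, and by 1.23 in gcn5 and 0.67 in ubp8. MRPL44 (-0.55) and PUP2 (-0.23) fell, MRE11 (0.40, without the filter) rose with overlapping groups, and NOP19 changed by 0.13 with an adjusted p of 0.341. FSH2 and ENO1 changed in both single deletions, including the one at the other locus.

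The a-cell identity of the strains showed in the markers, since all 6 a-specific markers passed the filter, while 1 of 4 alpha markers and 0 of 7 meiotic markers did. The summed a-marker level (log2 of summed relative signals) was 4.92 to 5.32 in WT and 3.71 to 3.91 in the double mutant. The alpha sum was -0.14 to 0.64 in WT and 0.48 to 0.53 in the double mutant, and the meiotic sum 0.24 to 0.58 and 1.401 to 1.455. The part of other cell types in the results was not tested. The rank correlation of S. pombe profiles was 0.975 to 0.990 between the 4 WT and 4 ubp8_gcn5 arrays. Within WT it was 0.992 for replicates 3 and 5, 0.991 for 4 and 6, and 0.979 to 0.983 for the other pairs. The ubp8_gcn5 pairs were at 0.992 to 0.995. Averaging alternate arrays, used below, joins WT 3 with 5 and 4 with 6. Whether such pairs shared a preparation was not tested. Replicates of WT were the more scattered group, with a median SD over genes of 0.152 against 0.0870 in the double mutant.

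Over the 4086 S. cerevisiae genes tested, 2358 (57.7%) differed between ubp8_gcn5 and WT, 978 higher (23.9%) and 1380 lower (33.8%). The falls outnumbered the rises, which turned when no dim gene was left out (1632 higher and 1490 lower), and more rises than falls were large. Of the genes called, 122 rose and 68 fell by at least 1 on the log2 scale, 16 and 6 by at least 2, and 4 and 1 by at least 3. The filter used the mean over 16 arrays, 4 of them WT. A gene dim only in WT thus passed more readily than a gene bright only in WT. How far this bears on the numbers of large rises and falls was not tested. The arrays of the groups did not overlap for 828 tested genes that were higher (20.3%) and 1189 that were lower (29.1%), of which 800 and 1149 were also called. The S. pombe genes, from added cells that carry none of these deletions, were called at 17.1% (223 of 1304) in the same contrast, with a median absolute change of 0.145.

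The relative values hold no change that all genes share. Against S. pombe, the median S. cerevisiae signal was 1.13, 1.25, 1.55 and 1.65 on the WT arrays and 1.09, 0.85, 0.55 and 1.00 on the ubp8_gcn5 arrays (log2). All 4 double mutant arrays lay below the lowest WT array. The means were 1.396 ± 0.25 and 0.87 ± 0.24 (SD, n = 4 each), a shift of -0.52 that left 69.6% of the WT signal (two-sided exact permutation p = 0.0286, the smallest that 4 against 4 arrays can give). The gcn5 arrays were at 1.39 ± 0.14 and the ubp8 arrays at 1.505 ± 0.23. WT replicates 7 and 8, from another array batch, stood at 0.63 and 0.66, and with them added the shift was -0.27 (exact p = 0.276). In total RNA, less RNA per cell and fewer S. cerevisiae cells in the mix cannot be told apart. With every gene set against S. pombe, the median change of tested genes was -0.55 in place of -0.06, and the calls split into 152 higher and 2696 lower. This scaling moved the change of every gene by the same amount, so the S. pombe values given for lists below repeat 1 shift. Rises and falls below are relative to the median gene unless S. pombe is named.

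**Figure D1:**
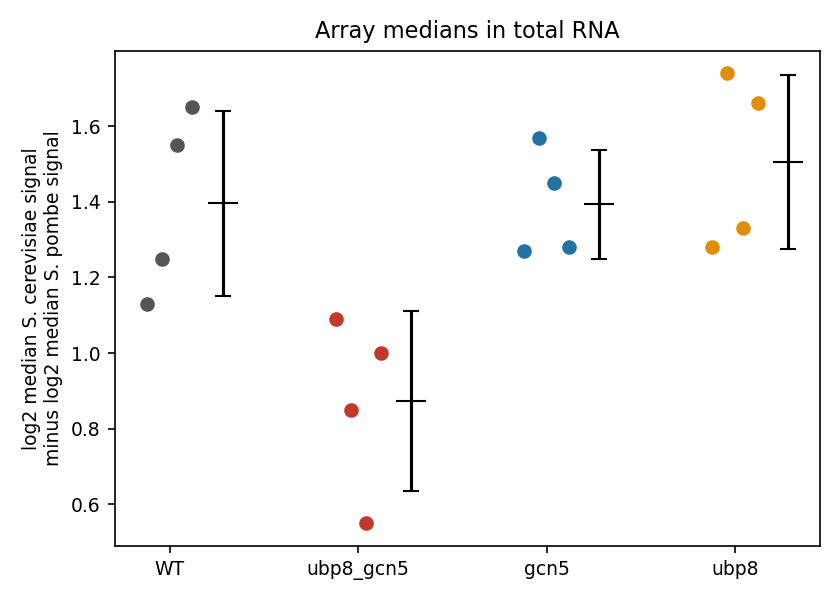
Each point is 1 total RNA array, with the log2 ratio of median S. cerevisiae to median S. pombe signal on the y axis, and the bars show mean ± SD of 4 arrays. The ubp8_gcn5 arrays lie between 0.55 and 1.09, below all 4 WT arrays at 1.13 to 1.65, while the gcn5 and ubp8 arrays overlap WT.

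Among genes that passed the filter, the largest single fall was in the phosphate system, where 8 of 10 tested genes fell, 1 rose and 1 missed the threshold (median -0.97, against -0.06 and 33.8% lower over all genes). In gcn5 alone the median of this list was -0.95. PHO84, the high-affinity phosphate transporter, read 2.86, 2.78, 2.81 and 2.66 in WT and -2.02, -2.02, -2.07 and -2.39 in the double mutant. It was above the array median in every WT array and below it in every mutant array, a change of -4.91 ± 0.11 (adjusted p = 1.9e-16). The mutant mean lay at percentile 8.68 of all genes, and the files give no background value, so this size is not read as an exact fold. VTC3, part of the vacuolar enzyme that makes polyphosphate, went from 2.18, 1.98, 2.16 and 1.79 to -0.37, -0.36, -0.39 and -0.52, which is 5.42-fold lower. Its partner VTC4 fell by 1.24 ± 0.07, and PHO81, the inhibitor of the kinase that keeps Pho4 out of the nucleus, by 0.93 ± 0.07. PHO11, an acid phosphatase whose probe set is shared with a close relative, fell by 1.24 ± 0.21, from WT arrays as far apart as 0.14 and 1.47, and lost its call in the fit over all arrays of the batch (adjusted p = 0.0522). PHO3, an acid phosphatase that acts on thiamine phosphates and was not on the phosphate list, fell by 1.75 ± 0.15.

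Genes of a-cell mating fell together. All 6 tested a-specific genes fell (median -1.27), as did 7 of 10 genes of the pheromone response, with 2 higher and 1 not passing (median -0.53). The share that fell over all genes tested was 33.8%. In gcn5 alone the medians of these lists were -1.25 and -0.39. MFA1, which encodes a-factor, read 3.10, 3.22, 2.97 and 2.99 in WT and 0.09, 0.71, 0.43 and 0.59 in the double mutant, 6.13-fold lower (-2.61 ± 0.12, adjusted p = 5.12e-12). BAR1, the protease that destroys alpha-factor, went from 1.43, 1.49, 1.07 and 0.90 to -0.92, -1.08, -0.80 and -0.59. The arrays of the groups did not overlap for either gene. STE6, the a-factor exporter (-1.29), and AGA2, the adhesion subunit of a-agglutinin (-1.26), also fell. In the signalling pathway, the G protein alpha subunit GPA1 fell by 1.57 ± 0.13, the MAP kinase FUS3 by 1.20 ± 0.07, the G protein beta subunit STE4 by 0.54 and the transcription factor STE12 by 0.55. SAG1, alpha-agglutinin, was the 1 tested alpha-specific gene and rose by 0.44 ± 0.09, but was at -0.054 on the S. pombe scale.

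The largest falls outside these groups had diverse roles. REX2, an RNA exonuclease, fell by 2.23 ± 0.11, and SRD1, linked to ribosomal RNA processing, by 2.14 ± 0.08. ERV1, the thiol oxidase of the mitochondrial intermembrane space, fell by 1.80 ± 0.10, FSH1, a serine hydrolase related to FSH2, by 1.77 ± 0.10, and TIP1, a cell wall mannoprotein, by 1.65 ± 0.10. HO, the mating-type switching endonuclease, read -0.20, -0.89, 0.89 and 1.10 in WT and -1.44, -1.65, -1.65 and -1.24 in the double mutant. The groups did not overlap, but WT replicates 3 and 4 lay well below 5 and 6, and the change of -1.72 had a wide SE of 0.29 (adjusted p = 6.94e-05).

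Arginine synthesis held the largest rises. Of its 7 tested genes, 6 rose and 1 missed the threshold (median 1.29), where 23.9% of all genes tested were higher and 33.8% lower. In gcn5 alone the median of this list was 1.35. ARG1, argininosuccinate synthetase, read -1.33, -0.88, -1.34 and -1.25 in WT and 2.27, 2.72, 2.81 and 2.29 in the double mutant (3.72 ± 0.14, adjusted p = 2.91e-13). ARG3, ornithine carbamoyltransferase, went from -2.20, -2.48, -3.08 and -2.57 to 0.65, 1.36, 1.34 and 0.72 (3.60 ± 0.19). Both went from below the array median in each WT array to above it in each mutant array. Of the 12 largest rises, 9 had a WT mean in the dimmest 25% of genes (percentile 22.9 for ARG1 and 9.23 for ARG3), as had 4 of the 12 largest falls on the mutant side, so these genes passed the filter through other arrays and their sizes are not exact folds. ARG7 rose by 1.71 ± 0.10 and ARG4, which releases arginine from argininosuccinate, by 1.29 ± 0.11. YOR302W, the short upstream reading frame in the leader of CPA1, whose product feeds carbamoyl phosphate to the pathway, rose by 1.89 ± 0.19. Of 4 tested genes of arginine use and transport, 2 fell and 2 did not pass, and the arginase CAR1 was lower by 0.56 ± 0.11.

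Glycine breakdown and one-carbon genes rose as well, with 8 of 13 higher, 2 lower and 3 not passing (median 0.25, but -0.25 on the S. pombe scale). For these and the lists below, the shares over all genes tested were 23.9% higher and 33.8% lower. In gcn5 alone the median of the glycine and one-carbon list was 0.47. GCV1, a glycine decarboxylase subunit, read -2.16, -1.93, -1.75 and -1.51 in WT and 1.37, 1.36, 1.44 and 1.42 in the double mutant (3.23 ± 0.12). GCV2, another subunit, rose by 2.95 ± 0.08, and the serine hydroxymethyltransferase SHM2 by 1.87 ± 0.07, while the serine synthesis gene SER2 fell by 0.79 ± 0.07. The 4 mutant arrays of GCV1 lay close together and the 4 WT arrays were more scattered. Methionine and sulphur genes were higher in 9 of 13 and lower in 1 (median 0.41, and -0.087 against S. pombe), led by the methionine synthase MET6 (1.92 ± 0.15) and the ATP sulphurylase MET3 (0.95 ± 0.09). In purine synthesis 8 of 12 rose and 2 fell (median 0.40, and -0.092 against S. pombe), among them ADE17 (1.05 ± 0.12). The remaining amino acid synthesis genes went both ways, 15 higher, 9 lower and 14 not passing of 38 (median 0.12, and -0.37 against S. pombe). LEU4 rose by 1.23 ± 0.10 and LEU9, its close relative in leucine synthesis, fell by 1.14 ± 0.08. ARO7, chorismate mutase, fell by 1.32 ± 0.10 and LYS1 of lysine synthesis rose by 1.21 ± 0.10. Among 13 permeases, 4 rose and 2 fell, with the methionine permease MUP1 at 1.49 ± 0.13 and the tyrosine permease TAT1 at -1.03 ± 0.10.

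Genes of vitamin synthesis also held large rises. In the thiamine and vitamin B6 list, 6 of 10 rose, 1 fell (PHO3) and 3 missed the threshold (median 0.65, and 0.15 against S. pombe). The share that rose over all genes tested was 23.9%. SNZ1, of vitamin B6 synthesis, read -0.99, -0.85, -0.91 and -0.87 in WT and 2.12, 2.18, 2.22 and 2.02 in the double mutant, 8.22-fold higher (adjusted p = 2.46e-15). THI4, which makes the thiazole of thiamine, rose by 2.18 ± 0.07, and THI13, of the pyrimidine branch and on a shared probe set, by 2.46 ± 0.08. Both groups were tight for SNZ1, with every mutant array above the array median and every WT array below it. The other leading rises were GOR1, a glyoxylate reductase (2.49 ± 0.19), CRG1, a methyltransferase of cantharidin resistance (2.31 ± 0.10), HSP26, a small heat shock protein (2.18 ± 0.17), RSB1, a membrane protein of sphingoid base resistance (2.16 ± 0.12), and DDI3, which shares its probe set with a near-identical copy (2.18 ± 0.10).

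**Figure D2:**
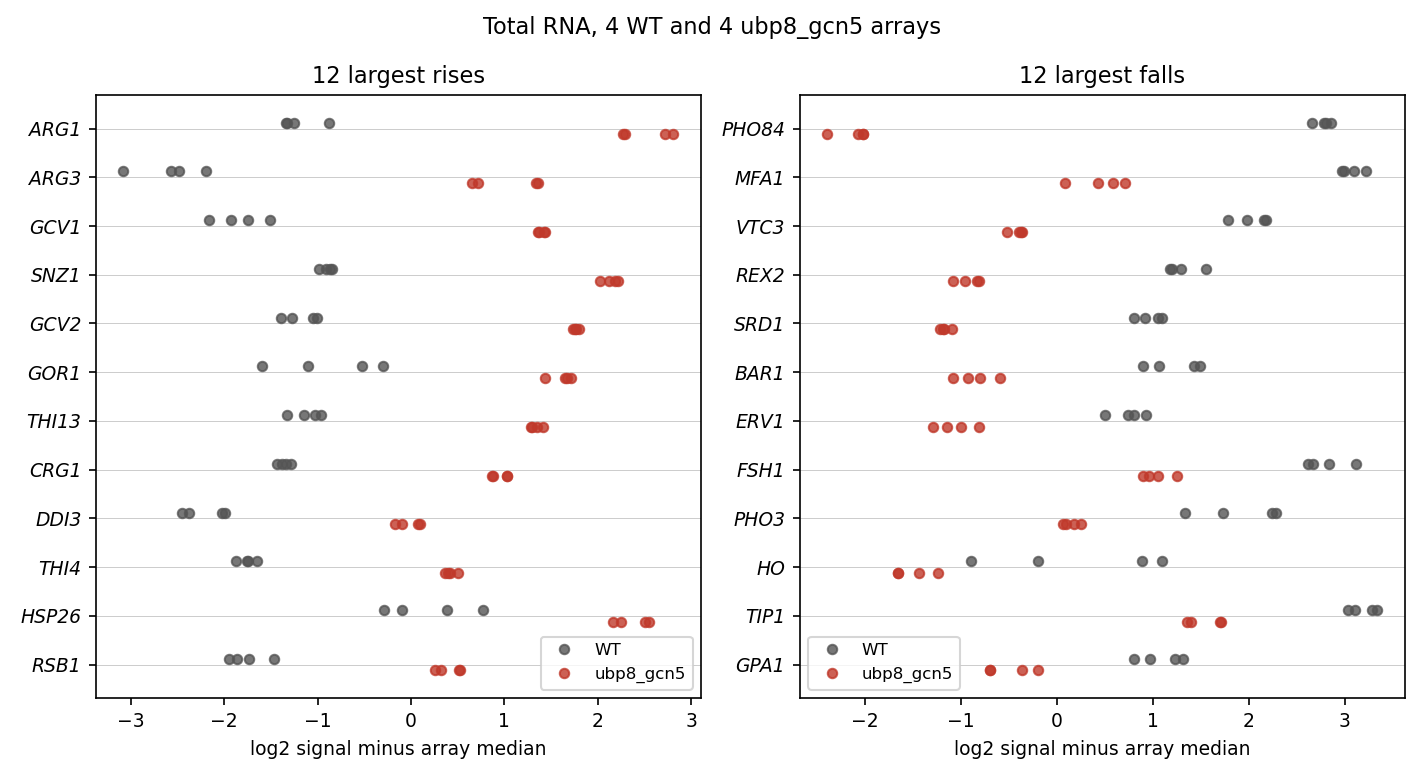
The 12 largest rises and the 12 largest falls among genes called in ubp8_gcn5 against WT whose arrays do not overlap, with 1 point per array (4 WT, 4 ubp8_gcn5) and log2 signal minus the array median on the x axis. The fall of PHO84 has the widest gap (-4.91), ARG1 leads the rises (3.72), and WT arrays of HO are the most scattered.

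Genes of carbohydrate stores, general stress and anaerobic growth rose more often than they fell, where 23.9% of all genes tested were higher and 33.8% lower. Of 12 trehalose and glycogen genes, 9 rose, 1 fell and 2 missed the threshold (median 0.51, but 0.014 against S. pombe, with 3 higher and 1 lower), among them the debranching enzyme GDB1 (1.18 ± 0.16) and glycogen synthase GSY2 (1.08 ± 0.20). In the general stress list 7 of 15 rose and 2 fell (median 0.33, and -0.17 against S. pombe). The heat shock chaperones gave 4 higher, 5 lower and 11 not passing of 20 (median -0.083). Besides HSP26, the mitochondrial chaperone MDJ1 was at -0.77 ± 0.14. The hypoxic list had 8 of 10 higher and 2 lower (median 0.92, and 0.42 against S. pombe), led by the cell wall mannoproteins TIR2 (1.74 ± 0.07) and TIR3 (1.42 ± 0.10), which are made under anaerobiosis. Oxidoreductases of the oxidative response were higher in 7 of 14 and lower in 0 (median 0.19, and -0.30 against S. pombe), with AAD6 at 1.59 ± 0.19. Glycolytic genes rose in 8 of 18 and fell in 0 (median 0.064, and -0.43 against S. pombe).

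Mitochondrial ribosomal proteins fell in 44 of 69 and rose in 4 (median -0.32), and ribosome biogenesis genes fell in 73 of 103 and rose in 1 (median -0.38). Over all genes tested, 33.8% fell and 23.9% rose. Cytosolic ribosomal proteins fell in 42 of 128 and rose in 1 (median -0.15, and -0.077 without WT replicate 4), a share of falls near that over all genes. Proteasome subunits fell in 18 of 33 and rose in 2 (median -0.16), but under quantile normalisation 3 fell and 5 rose (median -0.020). Of 31 oxidative phosphorylation genes, 10 fell, again near the share over all genes, and 5 rose (median -0.12). Under quantile normalisation 8 went each way (median -0.0036), and without WT replicate 4 the median was -0.014. Members with low p were the cytochrome oxidase subunits COX9 (-1.01 ± 0.09) and COX5A (-0.79 ± 0.10). The TCA cycle had 6 of 14 higher and 1 lower (median 0.17, but -0.32 against S. pombe and 0.046 without WT replicate 4). Pyrimidine synthesis and uracil uptake genes fell in 7 of 10 and rose in 2 (median -0.54). FUR1, the enzyme that turns uracil and its thio analogue into a nucleotide, read 3.30, 3.48, 3.15 and 3.16 in WT and 2.43, 2.50, 2.47 and 2.44 in the double mutant (-0.81 ± 0.07). It is the step by which 4-thiouracil enters RNA, and its mutant arrays lay below all WT arrays.

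Genes for the transcription machinery are given beside the 33.8% of all genes tested that fell and the 23.9% that rose. Of 16 tested SAGA subunit genes, 6 fell, 1 rose and 9 missed the threshold (median -0.22), a share of falls near that over all genes, and of 9 TFIID genes, 6 fell and 3 missed the threshold (median -0.24). TAF9, a subunit of both complexes, read 1.85, 1.93, 1.74 and 1.74 in WT and 0.84, 0.81, 0.71 and 0.73 in the double mutant (-1.04 ± 0.07), and SPT15, which encodes TBP, fell by 0.64 ± 0.08. In the list of other histone acetylation and H2B ubiquitin enzymes, 6 of 12 fell, 2 rose and 4 missed the threshold (median -0.16). Those with the lowest p were RAD6 (-0.72 ± 0.07) and BRE1 (-0.78 ± 0.09), the enzymes that attach ubiquitin to H2B, and UBP10 (-0.72 ± 0.08), another H2B deubiquitinase. Histone genes gave 1 higher, 1 lower and 7 not passing of 9. Among 8 tested genes with promoters often used to study SAGA, 5 rose, 2 fell and 1 missed the threshold (median 0.42, and -0.071 against S. pombe), ARG1 and the alcohol dehydrogenase ADH2 (0.90 ± 0.07) among the rises and HO among the falls.

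Cell wall and division genes were divided. The counts here stand beside 23.9% higher and 33.8% lower over all genes tested. Cell separation genes were higher in 7 of 14 and lower in 4 (median 0.44, but -0.052 against S. pombe and 0.19 without WT replicate 4, with 6 higher and 5 lower), with DSE2, a daughter-cell protein of wall degradation, at 0.98 ± 0.14 and the cyclin PCL9 at -0.95 ± 0.10. Cell wall mannoproteins were higher in 7 of 14 and lower in 3 (median 0.16, but -0.34 against S. pombe and -0.030 with the lowest 50% of genes left out). G1/S genes had 1 higher and 4 lower of 16, a share of falls under the 33.8% over all genes, and G2/M genes had 1 higher and 4 lower of 9. Iron regulon genes fell in 6 of 12 and rose in 2, with the iron permease FTR1 at 0.65 ± 0.10 among the rises. DNA damage genes rose in 5 of 8 and fell in 0, DDI3 among them. The NAD synthesis list had 2 higher and 4 lower of 10, near the shares over all genes. Ergosterol genes went both ways, 8 higher and 6 lower of 23, with ERG25 at 0.82 ± 0.07 and IDI1 at -0.98 ± 0.09. Of 5 tested hexose transporter genes, 1 rose, 1 fell and 3 did not pass. The 5 tested selectable marker genes were all higher (median 0.67, and 0.17 against S. pombe), with LEU2 at 0.75 ± 0.11, and LEU2 was also higher in gcn5 (0.97) and ubp8 (0.77).

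**Figure D3:**
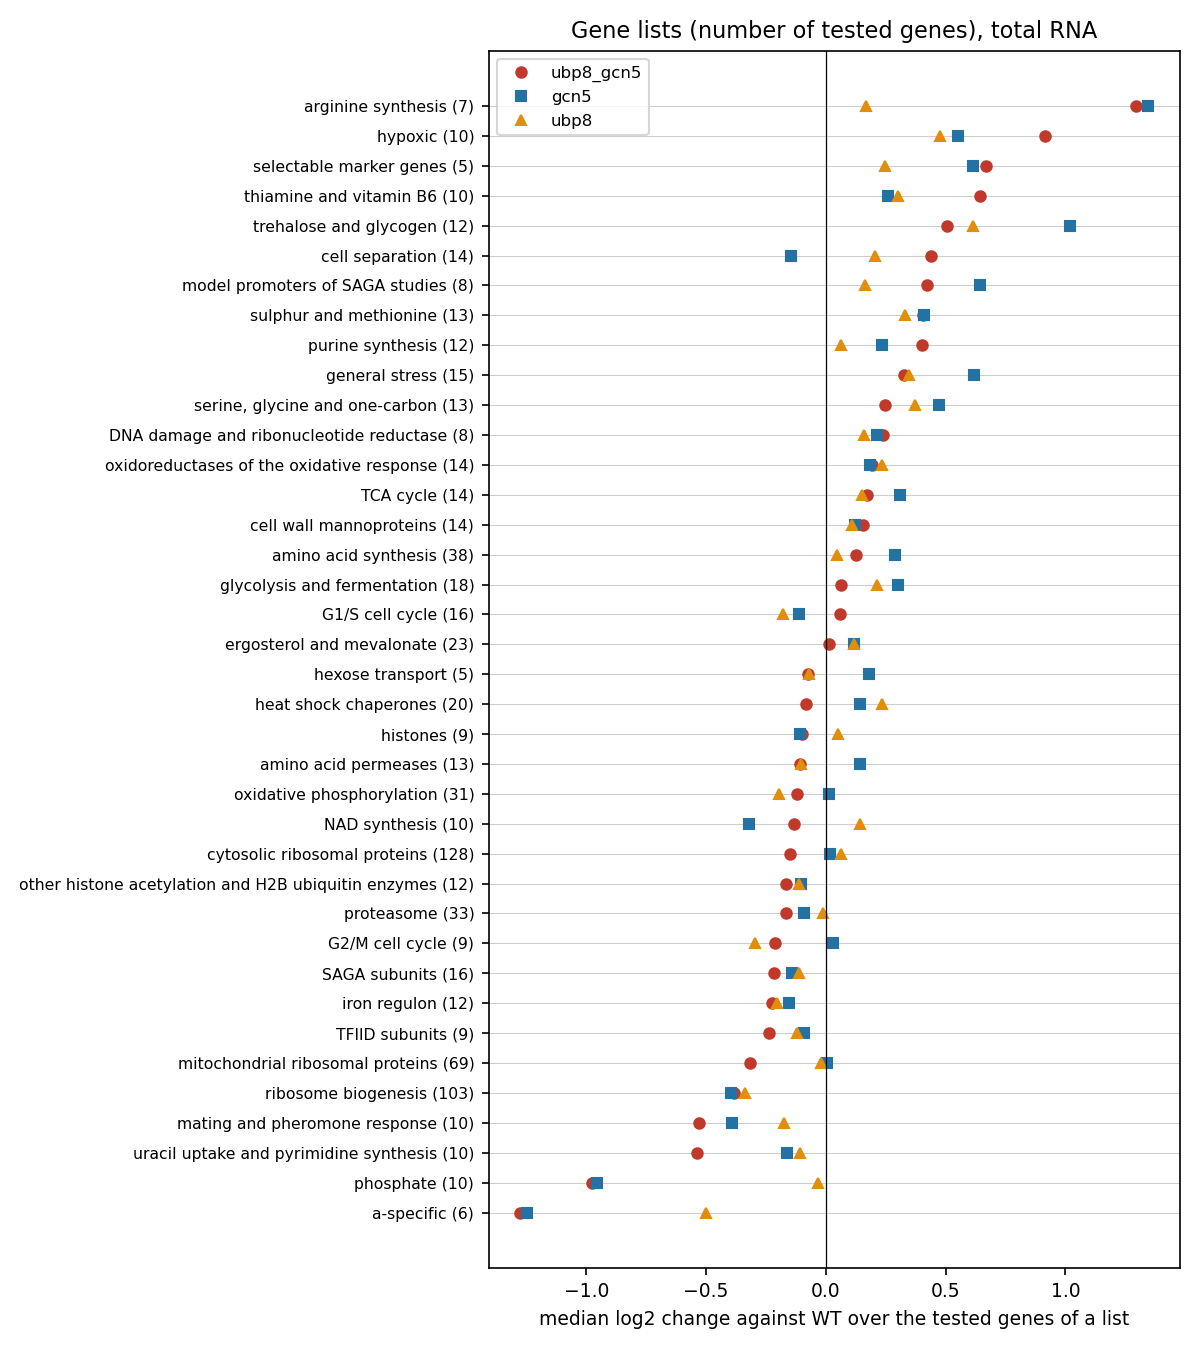
Median log2 change against WT over the tested genes of each list with at least 5 of them (number in brackets), for ubp8_gcn5, gcn5 and ubp8. Arginine synthesis (1.29) and the hypoxic list (0.92) lie highest and the a-specific (-1.27) and phosphate (-0.97) lists lowest in ubp8_gcn5. In gcn5 the medians of these lists are 1.35, 0.55, -1.25 and -0.95, in that order.

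The change also differed between bright and dim genes. In quartiles of all 5449 genes by mean signal, the median change went from 0.36 in the dimmest to 0.037, -0.079 and -0.13 in the brightest. Among the dimmest, which the filter leaves out of the counts above, 677 genes passed higher and 135 lower in a fit without the filter, while in the brightest 244 passed higher and 545 lower. The same medians for S. pombe genes were 0.0080, -0.013, -0.0017 and -0.095. Among dim genes, the meiotic regulator NDT80, chosen here after its values were seen, stood at -2.31 to -1.87 in WT and -0.52 to -0.34 in the double mutant, both below the array median. Other meiotic markers went different ways. IME1 (-2.28 to -1.77 in WT, -2.31 to -1.92 in the double mutant) and SPS4 (-2.83 to -1.85, -2.33 to -1.88) overlapped between the groups. IME2, SPO11, HOP1 and DMC1 were higher in the double mutant without overlap. Whether the brightness of a probe set bears on the size of its change was not tested beyond these values.

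**Figure D4:**
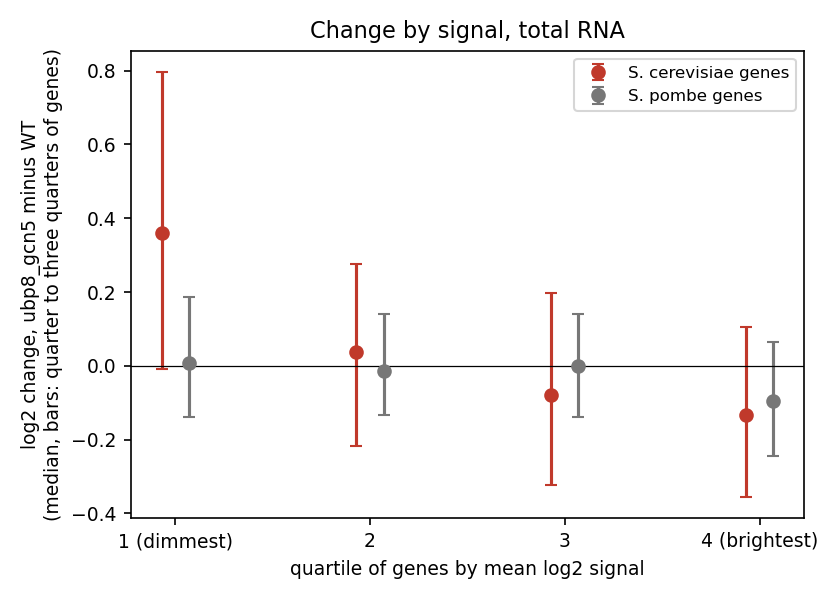
Median log2 change, ubp8_gcn5 minus WT, in quartiles of genes by mean log2 signal, for S. cerevisiae (all genes on the table) and S. pombe, with bars from the lower to the upper quartile of genes. The S. cerevisiae medians run from 0.36 in the dimmest to -0.13 in the brightest quartile, and the S. pombe medians stay between 0.0080 and -0.095.

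Set against gcn5, the double mutant differed in 1288 genes (31.5%), 458 higher (11.2%) and 830 lower (20.3%). Set against ubp8 it differed in 1726 (42.2%), 688 higher (16.8%) and 1038 lower (25.4%). Of the S. pombe genes, 20.2% were called against gcn5 and 25.1% against ubp8. Set against S. pombe these splits were 28 higher and 3034 lower, and 45 and 3350. With alternate arrays averaged into 2 samples a strain, 770 genes differed from gcn5 and 1274 from ubp8. Of the 122 genes that rose by at least 1 against WT, 73 differed from gcn5, 109 from ubp8 and 69 from both, with median changes against WT of 1.27 in the double mutant, 0.97 in gcn5 and 0.62 in ubp8. Of the 68 that fell by as much, 39 differed from gcn5, 66 from ubp8 and 39 from both, with medians of -1.22, -0.97 and -0.30. These medians share the WT arrays. Both sets of genes were picked by their change in the double mutant, which favours larger medians there and differences from the single mutants. In comparison with WT alone, gcn5 differed in 2064 genes (50.5%) and ubp8 in 1056 (25.8%).

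The leading genes took different places between the single mutants. PHO84 stood at -1.11, -1.29, -0.72 and -0.96 in gcn5 and at 2.70, 2.82, 2.63 and 2.79 in ubp8. The ubp8 arrays overlapped WT, and the double mutant lay below gcn5 by 1.11 (adjusted p = 1.1e-06). VTC3 was lower than in gcn5 by 0.30 (adjusted p = 0.015) and REX2 by 0.58. ARG3 exceeded gcn5 by 0.89 (adjusted p = 0.0023), with ubp8 at 0.04 against WT, while ARG1 differed from gcn5 by 0.16 with an adjusted p of 0.40 (SE 0.14). For MFA1 the difference from gcn5 was 0.03 (adjusted p = 0.88) and for BAR1 -0.20 (adjusted p = 0.20). SNZ1 read 0.45, 0.50, 0.51 and 0.79 in gcn5 and -0.47, -0.47, -0.55 and -0.32 in ubp8, all below the double mutant at 2.02 to 2.22. It was higher than in gcn5 by 1.57 (adjusted p = 4.9e-10).

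Other genes marked the double mutant off from gcn5. YLL053C, an aquaporin-like reading frame, rose by 2.00 ± 0.10 against WT and was 1.54 above gcn5 and 1.22 above ubp8. YIL014C-A, an uncharacterised reading frame, was 1.20 above WT and 1.72 above gcn5, where it was at -0.51. ARR2, an arsenate reductase, and YNL040W, a putative aminoacyl-tRNA editing protein, were 1.61 and 1.55 above gcn5 but did not pass against WT (0.22, adjusted p = 0.499, and 0.29, adjusted p = 0.0541). HXT7, a high-affinity glucose transporter on a shared probe set, read 1.62, 1.67, 1.75 and 2.04 in WT, 0.48, 0.14, 0.47 and 0.32 in the double mutant and 1.82, 1.89, 2.00 and 2.08 in gcn5. The double mutant arrays lay below every array of WT and of gcn5, 1.59 below the latter on average, and ubp8 lay between at 0.87 to 1.39. TIP1 was 1.18 below gcn5 and 1.69 below ubp8, and the mitotic exit gene SPO12 was 1.23 and 0.80 below. YMR030W-A, an uncharacterised reading frame, was 1.32 below gcn5. Against ubp8 the largest differences upward were ARG3 (3.56), ARG1 (3.44), SNZ1 (2.59), RTS3, tied to phosphatase 2A (2.18), and YOR302W (2.15). Downward they were PHO84 (-4.86), VTC3 (-2.37), PHO11 (-1.93), REX2 (-1.92) and MFA1 (-1.91).

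**Figure D5:**
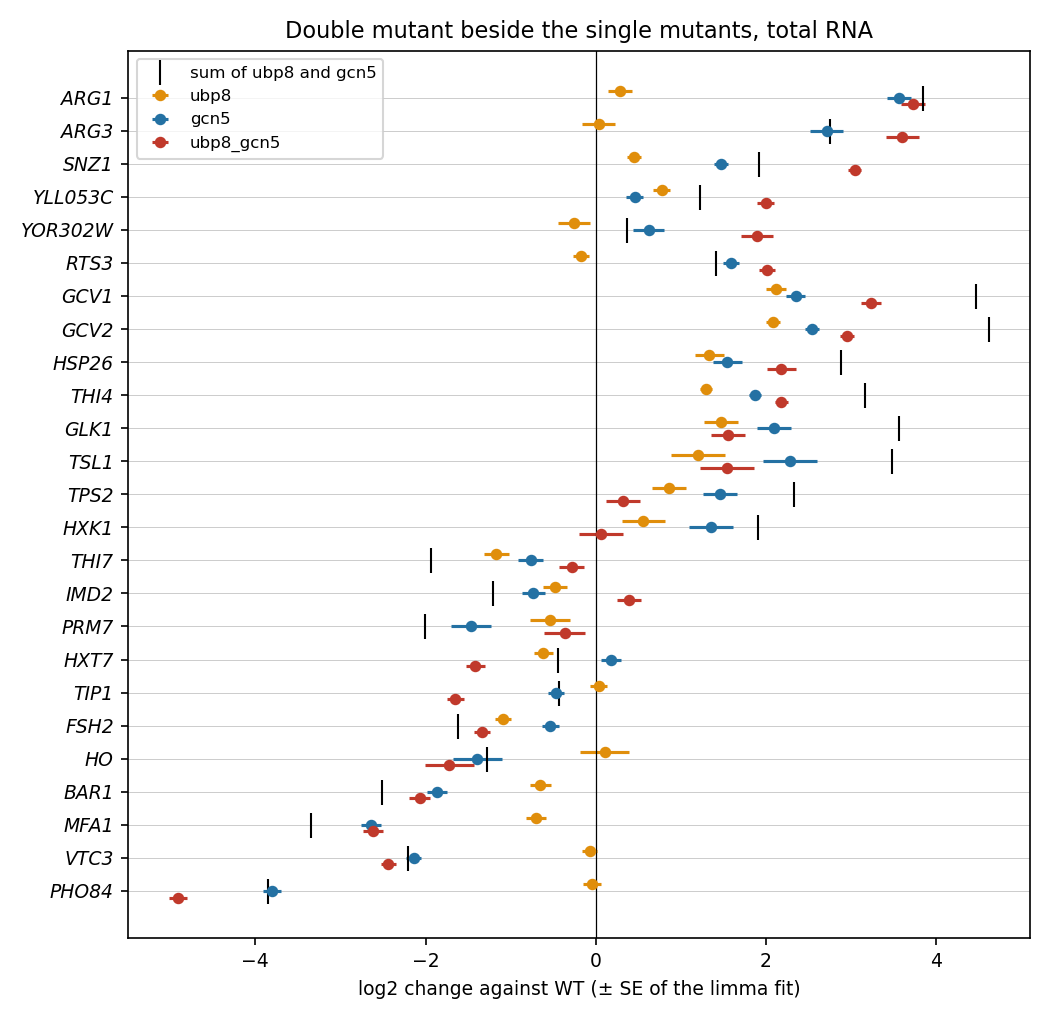
Log2 change against WT (± SE of the fit, n = 4 arrays a strain) of 25 named genes in ubp8, gcn5 and ubp8_gcn5, with a bar at the sum of the single changes. SNZ1 and PHO84 lie beyond that sum, GCV2 and GLK1 short of it, and TPS2 and HXK1 are nearer to 0 in the double mutant than in either single one.

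On the log2 scale the double mutant departed from the sum of the single changes in 1019 genes (24.9%), 366 above (8.96%) and 653 below (16%). Of the S. pombe genes 27.6% did so, a share above that of the S. cerevisiae genes, with a median absolute departure of 0.211. With alternate arrays averaged 434 genes departed, and set against S. pombe 9 were above and 2432 below. SNZ1 exceeded the sum by 1.12 ± 0.11 and YOR302W by 1.53 ± 0.26, and PHO84 lay 1.06 ± 0.15 below it. The thiamine transporter THI7 was 1.65 ± 0.21 above the sum, having fallen in ubp8 (-1.17) and gcn5 (-0.76) but not passed in the double mutant (-0.28, adjusted p = 0.115). The pheromone-regulated gene PRM7 (1.64 ± 0.33), IMD2, an IMP dehydrogenase on a shared probe set (1.60 ± 0.20), and the pre-rRNA processing gene ESF1 (1.43 ± 0.32) also lay above.

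Below the sum lay the reserve carbohydrate and glucose phosphorylation genes. The glucokinase GLK1 rose in all 3 strains, by 1.47 in ubp8, 2.10 in gcn5 and 1.55 in the double mutant, 2.01 ± 0.28 under the sum. TPS2, the trehalose phosphate phosphatase, read -0.73, -1.41, -0.41 and -0.30 in WT, -0.29, -0.65, -0.56 and -0.09 in the double mutant and 0.38, 1.05, 0.73 and 0.85 in gcn5. Its double mutant arrays overlapped WT and lay below every gcn5 array (departure -2.01 ± 0.28). TSL1, a subunit of the trehalose synthase complex (-1.94 ± 0.45), the hexokinase HXK1 (-1.85 ± 0.36) and the nicotinamidase PNC1 (-1.75 ± 0.31) behaved in the same direction. WT was scattered for these genes, with replicates 3 and 4 below 5 and 6, and TSL1 ranged from -1.23 to 0.67. Of the 12 trehalose and glycogen genes 11 departed below the sum and 1 above, with median changes of 0.51 in the double mutant, 1.02 in gcn5 and 0.61 in ubp8. GCV2 was 1.67 ± 0.11 and MET6 1.21 ± 0.22 below the sum.

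Ribosomal genes differed between the strains too. Ribosome biogenesis genes fell in 76 of 103 in gcn5 and 57 in ubp8, with medians of -0.40 and -0.34 beside -0.38 in the double mutant, and 28 departed above the sum and 0 below. For mitochondrial ribosomal proteins the medians were 0.0039 in gcn5, -0.020 in ubp8 and -0.32 in the double mutant, and 18 of 69 departed below the sum and 0 above. Over all tested genes, 25.4% fell in gcn5 and 12% in ubp8, while 8.96% departed above the sum and 16% below. Of the S. pombe genes, from the added cells, 27.6% departed from the sum in either direction.

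The nascent RNA arrays of the same strain hold S. cerevisiae signals that had been divided by constants, with a log2 ratio of 0.43 between the constants of 2869 and 2629 probe sets, so only directions are read from them, with the constants undone. All 12 leading rises and all 12 leading falls had the same sign in nascent RNA as in total RNA, as had 122 of 122 and 68 of 68 genes that changed by at least 1. Of all genes tested, 39.9% were higher and 60.1% lower in nascent RNA. With the constants undone, the nascent differences were 3.36 for ARG1, 2.53 for SNZ1, 2.55 for GCV1, -4.28 for PHO84 and -2.34 for MFA1. They are given for their signs, and their sizes are not read. Nascent RNA was purified from the total RNA, so these arrays are not independent samples of the strain.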

How the data were processed

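Total RNA was measured on Affymetrix Yeast Genome 2.0 arrays, and the deposited values are array intensity signals, not log transformed, of 10928 probe sets. The submitters' processing notes name Affymetrix Expression Console 1.4.1 as the software the authors used. The algorithm and any scaling were not given in the sources used here. No background value comes with them, so the spread between arrays sets the precision. WT replicates 1 and 2 equal the means of 3 and 4 and of 5 and 6 in 5498 S. cerevisiae probe sets and were left out. WT replicates 7 and 8 were left out as another batch, by their S. pombe profiles (rank correlation 0.815 to 0.879 with the other arrays).

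The annotation table of the array gave 1 gene to 7244 probe sets, several to 1 and none to 3683, and 12 symbols were updated. The brightest probe set was used for 47 genes with several. Signals were log2 transformed, centred on the array median, and the dimmest 25% of 5449 genes left out. One limma 3.58.1 fit in R 4.3.3 (lmFit, eBayes) took 16 arrays, and its p-values were adjusted by Benjamini-Hochberg over 4086 genes, with calls at 0.05. Array medians were compared by two-sided exact permutation tests in Python 3.11.15 with scipy 1.17.1. When 200 of 4086 genes were changed in simulated data, tested in the contrast of ubp8_gcn5 with WT, the fit recovered 92.5% of the 67 changed by a log2 size of 0.5 and 100% of the 67 changed by 1 and the 66 changed by 2, with 10 false calls among 205 in all. The simulated arrays varied independently, with no shared cultures, so these false calls do not measure the error of the real calls. In the real contrast 17.1% of the S. pombe genes were called.

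Named genes are the deleted ones and 2 neighbours on each side, the 12 largest rises and 12 largest falls called without overlap of the groups, from each list up to 4 called members of lowest p, and up to 5 each way in the other contrasts, and a few added after their values were seen, in counts of a list or with a remark. The members and the 41 gene lists were chosen with earlier results of these data known. Meiosis genes had 0 tested members, and Ty genes are not analysed here. Alternatives covered the arrays in the fit, averaging of arrays, scaling, filters, an added constant, the variance trend and a replicate block. Same-numbered arrays did not deviate together (correlations of -0.40 to 0.24 with gcn5, -0.23 to 0.049 with ubp8, -0.15 to 0.12 with WT).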

Additional observations from a re-analysis of the deposited data

Results flagged for a closer look

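A test for a lone array within a group of 4, which chance sets off in about 1 of 20 groups, picked out 4 of the genes named above. FSH2 had 1 ubp8_gcn5 array at -0.93, PHO84 1 at -2.39 and VTC3 1 at -0.52, each below the other 3 arrays of the strain, and in all 3 genes this was replicate 4. MRE11 had 1 WT array at -2.30, below the other 3. For FSH2, PHO84 and VTC3 every ubp8_gcn5 array was below every WT array.

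By the interaction contrast of the same limma fit, the double mutant departed from the sum of the single changes in 1019 genes. The 10 of them given here were picked for naming by this same contrast, so their differences are not a separate result. The differences were 1.65 for THI7, 1.64 for PRM7, 1.60 for IMD2, 1.53 for YOR302W and 1.43 for ESF1. They were -2.01 for GLK1, -2.01 for TPS2, -1.94 for TSL1, -1.85 for HXK1 and -1.75 for PNC1.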

How the results depend on the processing

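The count of 2358 genes changed against WT stayed between 1625 and 3122 in all 21 alternatives, with 1632 higher and 1490 lower when no dim gene was left out, and 1625 with the lowest 50% left out. These 2 filters tested 5449 and 2724 genes in place of 4086, so their counts are not set directly beside 2358. Against S. pombe the counts were 3062 for the difference from gcn5, 3395 from ubp8 and 2441 for the departure from the sum. With alternate arrays averaged, 770 genes differed from gcn5 and 434 departed from the sum. With the lowest 50% left out 669 of 2724 departed, beside 1019 of 4086 in the main fit. The shift of array medians was -0.11 without S. pombe scaling (exact p = 0.2), -0.49 without the filter (exact p = 0.0571), -0.27 with WT 7 and 8 (exact p = 0.276), and -0.52 with consecutive arrays averaged (exact p = 0.333, the smallest that 2 against 2 can give). Leaving out 1 array gave -0.61 to -0.42 (exact p = 0.0571 each, the smallest possible).

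Set against S. pombe, the medians turned to -0.054 (alpha-specific, SAG1), -0.37 (amino acids), -0.087 (sulphur), -0.25 (serine and glycine), -0.092 (purines), -0.32 (TCA), -0.17 (stress), -0.30 (oxidoreductases), -0.34 (mannoproteins), -0.052 (cell separation), -0.26 (DNA damage), -0.48 (ergosterol) and -0.071 (model promoters), and HXK1 to -0.43 and IMD2 to -0.10. This scaling moves the change of every gene by the same amount, so these turns follow from 1 shift and are not separate results. The mannoprotein median was -0.030 with the lowest 50% left out. The ergosterol median of 0.014 was -0.033 to 0.051 with 1 array left out, turning to -0.017 without ubp8_gcn5 replicate 3, -0.011 without WT replicate 4 and -0.033 without WT replicate 6, and was -0.048 with the replicate block. The fit with the replicate number as a block called 2185 genes against WT, 885 higher and 1300 lower. Numbers 5 and 6 occur only among the WT arrays, so their blocks took these arrays up. The contrast with WT then rested on WT replicates 3 and 4, matched by numbers that are not known to share a culture. In that fit G1/S genes turned to 9 higher and 1 lower (median 0.29), G2/M genes had 0 higher and 7 lower, the heat shock median turned to 0.087 (5 higher, 3 lower) and the TCA cycle median was 0.33 (8 higher, 1 lower). Among named genes, PHO11 lost its call over all arrays of the batch (adjusted p = 0.0522), PUP2 under quantile normalisation, FTR1, ERG25 and LEU2 against S. pombe, and IMD2 without WT replicate 4 or any of ubp8_gcn5 replicates 1 to 3 (0.30 to 0.37, adjusted p 0.0529 to 0.0816) or with alternate arrays averaged (adjusted p = 0.0616). YNL040W, THI7, PRM7 and PNC1, which missed the threshold against WT, passed it without 1 or more single arrays (WT replicate 5 for THI7 and PRM7, 4 for PNC1), HXK1 (0.72) and TPS2 (0.74) with the block, and ESF1 (-0.71) against S. pombe. The cause of these changes was not tested.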
